A study of Mus musculus with 24 samples.

Results

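Omission of the DNase step was examined in liver that had been left for 96 h, on the arrays that carried RNA including small RNAs. The comparison held 6 of the 24 arrays of the series, chosen by their labels: 3 arrays without DNase digestion and 3 with it, 1 of each from the same mouse. The study hybridized liver RNA of 3 male mice to microRNA (miRNA) arrays to find signals that do not come from intact small RNA. It prepared RNA including small RNAs from fresh tissue (0 h) and from stored tissue (96 h), with or without DNase, and RNA depleted of small RNAs that was left untreated or incubated with RNase. Both groups compared here came from pieces of the same livers, kept 96 h at room temperature before RNA isolation with a column kit that retains small RNAs. They differed in whether DNase was applied on the column. The labels give no strain, age or genotype for these mice. RNA integrity numbers (RIN, a scale on which intact RNA scores highest) were 2.3, 2.4 and 2.3 with DNase in mice 7, 9 and 10, and 2.3, 2.3 and 2.5 without it. Each mouse had its own slide and scan, and effects of mouse, slide and scan cannot be told apart. Liver pieces are bulk tissue, in which fewer cells of a type and less RNA per cell cannot be told apart.

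A miRNA is a short RNA, cut from a hairpin precursor, that guides repression of messenger RNAs through its seed, bases 2 to 8 from the 5′ end. The 2 arms of a hairpin are named 5p and 3p. Column purification of tissue RNA can carry over genomic DNA, and the optional digestion on the column is meant to remove it. The labelling kit attaches cyanine 3 to the 3′ ends of the sample and the array reads hybridization to short complementary probes, so the readout is a signal at a probe and not a sequence. Liver is known for its very high miR-122-5p, and the rodent miR-466, miR-467, miR-669 and miR-297 families lie mostly in a cluster of hairpins within the gene Sfmbt2, many of them with long alternations of U and G in the 5p arm and of C and A in the 3p arm.

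The sequences at the centre of the results are given first, as 1 strand written 5′ to 3′ with the seed in capitals, from RefSeq on the build GRCm38.p6. RefSeq entries matched 1608 of the 1881 miRNAs on the array, 526 of the 631 that were tested, 23 of the 39 that were higher without DNase and 26 of the 29 that were lower. The first 8 were higher without DNase and hold the letters UGUGUG on the mature strand:
miR-574-5p: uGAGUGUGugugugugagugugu
miR-1187: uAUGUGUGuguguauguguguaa
miR-3082-5p: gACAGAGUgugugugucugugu
miR-669n: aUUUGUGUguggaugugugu
miR-466j: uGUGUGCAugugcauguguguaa
miR-32-3p: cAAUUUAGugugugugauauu
miR-672-5p: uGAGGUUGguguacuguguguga
miR-6348: uCAGCCUUuauaaggugugugu
miR-574-5p lies at chr5:64970328-64970350 on the plus strand, and miR-466j at chr10:60960802-60960824 on the plus strand. The motif starts at base 5 of miR-574-5p and recurs in 4 overlapping copies, starts at base 3 of miR-1187 with 4 copies, and stands once, from base 16, in miR-6348. The 8 miRNAs came from chromosomes 1, 3, 4, 5, 10, 17 and X, with 2 of them on chromosome 5. Another 3 tested miRNAs hold the motif once and were not called, and are shown for contrast:
let-7b-5p: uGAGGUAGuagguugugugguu
miR-493-3p: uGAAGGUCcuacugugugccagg
miR-7226-5p: gCCAGGGAaguugauugugugaaggg
A further set was higher without DNase, lacks the motif and is rich in C and U:
miR-207: gCUUCUCCuggcucuccucccuc
miR-877-3p: uGUCCUCUucucccuccuccca
miR-7047-3p: uCACCCUCacccuuccuccuucc
miR-7235-3p: uCUGACUUcuugcuucucuccuc
miR-1894-5p: cUCUCCCCuaccaccugccucu
miR-7082-3p: gCCCCCCUugcugucugucucc
miR-1943-3p: cAGGUGCCagcuccucccuuc
miR-207 lies at chr4:40722968-40722990 on the plus strand. The last set was lower without DNase, and most of its members are rich in purines:
miR-1224-5p: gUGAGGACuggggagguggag
miR-2137: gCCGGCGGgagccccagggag
miR-7036a-5p: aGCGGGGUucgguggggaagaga
miR-6385: gCAAGGAUgacagagaggaag
miR-6912-5p: uACAGGGAgggugcucaggcag
miR-690: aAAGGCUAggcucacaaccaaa
miR-1224-5p lies at chr16:20604452-20604472 on the plus strand. No seed was shared between any 2 of the called miRNAs whose sequence was matched. The called miRNAs without a matched sequence could not be checked, among them 12 increases of the miR-466, miR-467 and miR-669 families.

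The arrays themselves differed in ways that the comparison does not explain. The numbers of miRNAs flagged as detected were 639, 707 and 582 with DNase in mice 7, 9 and 10, and 620, 599 and 651 without. The mean difference was -19.3 miRNAs (two-sided exact permutation p = 0.7), where 3 arrays against 3 cannot give a p under 0.1 and sign changes within mice cannot give one under 0.25. Detection fell in mice 7 and 9 and rose in mouse 10, so the groups overlapped. In mouse 7, 81 miRNAs were detected only without DNase and 100 only with it. The corresponding numbers were 56 and 164 in mouse 9, and 81 and 12 in mouse 10. Summed signal of detected miRNAs was 245927, 362324 and 199478 intensity units with DNase and 195914, 187378 and 260481 without, in the same order of mice (two-sided exact permutation p = 0.4 on the log2 scale). No spot was saturated on these 6 arrays. Levels correlated between mice at r = 0.98, 0.97 and 0.96 across the 631 tested miRNAs without DNase, and at 0.98, 0.88 and 0.85 with DNase, where both lower values involved mouse 10. The array of mouse 10 with DNase received a weight of 0.153 when arrays were weighted by their fit, the lowest of the 6. The main counts, and the named miRNAs whose call changed without mouse 10, are given with and without it where they are described.

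Without DNase, 39 of 631 tested miRNAs were higher at 96 h (6.18% of those tested) and 29 were lower (4.60%). A call required a Benjamini-Hochberg adjusted p under 0.05 in a limma fit over all arrays of the series together with a difference of at least 1 on the deposited log2 scale, a 2-fold change for bright signals. All differences below are without minus with DNase on that scale. All 39 increases went the same way in all 3 mice, against 96 of 631 tested miRNAs (15.2%) that were higher in 3 of 3 mice whether called or not. Of the 29 decreases, 23 were lower in 3 of 3 mice, against 215 of 631 (34.1%). The increases were similar in size in each mouse, with medians over the called miRNAs of 2.64, 2.10 and 2.70 in mice 7, 9 and 10. The decreases were not, with medians of -2.11, -3.15 and -0.13, and none of the 29 fell by 1 or more in mouse 10. In a fit of the 6 compared arrays alone with mouse as a replicate block, 28 miRNAs were higher (4.44%) and 3 were lower (0.475%). That fit held 28 of the 39 increases and 2 of the 29 decreases, miR-145a-5p and miR-6537-3p. Without mouse 10 the counts were 88 higher and 78 lower, without mouse 7 they were 14 and 0, and without mouse 9 they were 31 and 0. The ratio of increases to decreases also moved with the scaling: 56 to 27 after centring on the 75th percentile, 46 to 54 without normalization, and 37 to 15 after normexp background correction.

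**Figure D1:**
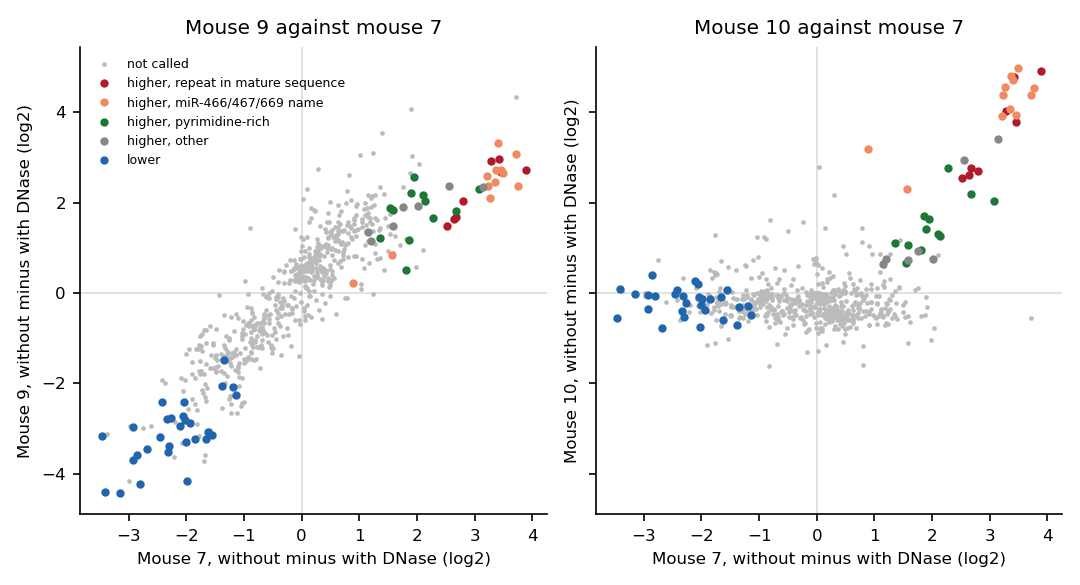
Difference without minus with DNase (log2) of the 631 tested miRNAs in mouse 9 (left) and mouse 10 (right) against mouse 7, 1 point per miRNA and coloured by call. The increases stand above 0 in all 3 mice, while the decreases lie between -0.787 and 0.396 in mouse 10.

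Across all 631 miRNAs, the difference in mouse 7 correlated with that in mouse 9 at r = 0.90, and with that in mouse 10 at r = 0.45, and mice 9 and 10 gave r = 0.26. These coefficients are across miRNAs of 1 array pair per mouse and describe these arrays only. The plot of mouse against mouse shows where they part: in mouse 10 most miRNAs lay near 0 whatever they did in mouse 7, and the called increases stood apart from them. Median differences over all tested miRNAs were 0.01, 0.28 and -0.22 in mice 7, 9 and 10.

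The 10 largest increases were 3 miRNAs with the motif and 7 members of the miR-466 and miR-669 families without a matched sequence. miR-466j gave 4.94, 9.53 and -0.372 intensity units with DNase in mice 7, 9 and 10, and 78.8, 45.8 and 47.3 without. Every array without DNase lay above every array with it, and in mouse 10 the DNase array did not detect the miRNA. The difference was 3.84 (SE 0.659, n = 3 mice, limma adjusted p = 0.00050). miR-672-5p gave 10.4, 10.6 and -0.350 units with DNase and 105, 60.1 and 43.5 without, a difference of 3.72 (SE 0.802, limma adjusted p = 0.0032). miR-6348, in which the motif is the last part of the sequence, gave 10.7, 10.4 and 0.333 units against 98.3, 57.1 and 39.6, a difference of 3.41 (SE 0.509, limma adjusted p = 0.00017). In both, the groups again did not overlap. miR-32-3p rose from 27.6, 29.6 and 4.49 to 266, 128 and 110 units, which was 9.66-fold in mouse 7 and 4.31-fold in mouse 9. Of the 8 motif increases, 8, 8 and 4 were flagged with DNase in mice 7, 9 and 10, and 8 on each array without. None of the miRNAs in this paragraph was flagged with DNase in mouse 10. The arrays without DNase counted toward passing the filter for the dimmer motif miRNAs, so their calls are a description.

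The brighter miRNAs with the motif showed the change well above background. miR-574-5p, the brightest with the motif among the increases, gave 882, 1043 and 464 units with DNase in mice 7, 9 and 10, and 4251, 1920 and 3701 without. The ratio of the scanner signals was 4.82, 1.84 and 7.98 within the 3 mice, and the difference was 2.18 (SE 0.409, limma adjusted p = 0.00091). miR-3082-5p went from 464, 577 and 250 units to 2517, 1224 and 2334, and miR-1187 from 406, 464 and 208 to 2141, 945 and 1734. In these 3 miRNAs no array without DNase was as low as the highest array with DNase, and mouse 9 had the smallest ratio of the mice. miR-669n gave 101, 112 and 44.1 units with DNase and 599, 302 and 403 without, a difference of 2.51 (SE 0.385, limma adjusted p = 0.00020). On all 6 arrays these miRNAs were flagged as detected. All 16 probes of the 8 motif miRNAs that were called had more signal without DNase in all 3 mice. These probes make up the signals on which the miRNAs were called, so this is a description.

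**Figure D2:**
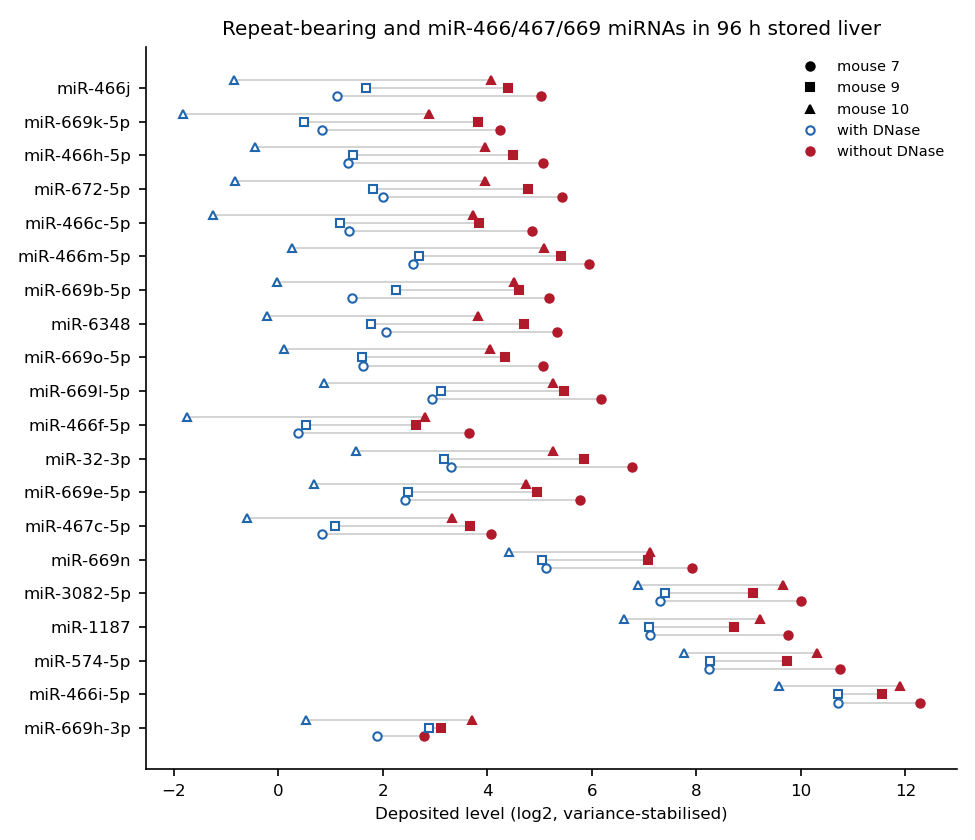
Deposited level (log2, variance-stabilised) of the 8 increases with the motif and the 12 increases named miR-466, miR-467 or miR-669 without a matched sequence, with 1 open symbol (with DNase) and 1 filled symbol (without DNase) per mouse, joined within the mouse. Every joined pair runs from lower with DNase to higher without.

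UGUGUG was found in 25 of the 1608 sequenced miRNAs on the array (1.55%) and in 11 of the 526 that were tested (2.09%), and it was searched on the mature strand with overlapping copies allowed. It was found in 8 of 23 sequenced increases (34.8%), in 0 of 26 sequenced decreases and in 3 of the 477 sequenced miRNAs that were not called (0.629%). As the arrays without DNase counted toward passing the filter, these shares are a description. The 3 that were not called carry the motif once. let-7b-5p, a member of the let-7 family of widely expressed miRNAs, gave 98.5, 113 and 307 units with DNase and 149, 208 and 296 without, with a difference of 0.60 (limma adjusted p = 0.44) and overlapping groups. The other 14 miRNAs with the motif were not tested because they were detected on too few arrays. With DNase 1 of these 14 was detected on any of the 3 arrays, and without DNase 6 of them were, 2 on all 3. Of the other runs searched on the mature strand, the complement CACACA stood in 5 tested miRNAs of which 0 were called, AGAGAG in 8 of which 1 was lower, CUCUCU in 6 of which 0 were called, GGGGG in 23 of which 0 were called, and CCCCC in 20 of which 1 was higher. On the array as a whole these runs stood in 12, 18, 21, 39 and 22 of the 1608 sequenced miRNAs.

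The miR-466, miR-467, miR-669 and miR-297 families made up 61 of the miRNAs on the array, of which 25 were tested, 14 were higher without DNase and 0 were lower. By family, 6 of 12 tested miR-466 members, 1 of 3 miR-467 members and 7 of 10 miR-669 members were higher, and none of the 3 miR-297 members passed the filter. The division followed the arm of the hairpin, a split made after the values were seen. On the 5p arm 25 miRNAs were on the array, the 11 that were tested were all higher, and their median difference was 3.37 against 0.03 over all miRNAs tested. A miRNA had to be flagged on at least 5 of the 24 arrays, so the arrays without DNase at 96 h counted toward passing the filter, and the count over members that passed is a description. Of the other 14, 8 had more signal without DNase in all 3 mice, 1 was detected on any array with DNase and 6 on any array without. On the 3p arm 9 of 26 were tested, 1 was higher, and the median was -0.25.

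Among the 5p arms, miR-466h-5p gave 5.96, 7.81 and 0.0380 units with DNase in mice 7, 9 and 10, and 81.5, 49.4 and 43.4 without. Its difference was 3.73 (SE 0.703, limma adjusted p = 0.00094), without overlap of the groups. miR-467c-5p gave 3.78, 5.85 and -0.129 units with DNase and 40.1, 27.1 and 27.6 without, a difference of 3.24 (SE 0.437, limma adjusted p = 7.77e-05). These arrays read values near the detection limit with DNase and clear signals without it. Of the 12 family increases without a matched sequence, 12, 12 and 1 were flagged with DNase in mice 7, 9 and 10. Without DNase 12 were flagged on each array, and on each array of the other groups 1 or 2 were. The arrays without DNase at 96 h thus counted toward passing the filter, and the calls of these members are a description. miR-669k-5p, miR-466c-5p, miR-466m-5p, miR-669b-5p, miR-669o-5p and miR-669l-5p rose by 3.81, 3.71, 3.63, 3.55, 3.37 and 3.32 in the same fit. miR-466i-5p, by far the brightest of the families, gave 4926, 5702 and 1632 units with DNase and 12284, 6688 and 11039 without, with ratios of 2.49, 1.17 and 6.76. Its difference was 1.57 (SE 0.452, limma adjusted p = 0.027), and the call was lost in the fit of the 6 arrays with mouse as a replicate block (adjusted p = 0.10). On the 3p side, miR-466h-3p gave 457, 535 and 120 units with DNase and 144, 137 and 234 without (difference -0.75, limma adjusted p = 0.36), and miR-669p-3p gave 203, 268 and 65.9 against 49.1, 73.6 and 119 (difference -0.87, limma adjusted p = 0.26). Neither was called with all 3 mice. Both had less signal without DNase in mice 7 and 9 and more in mouse 10. miR-467f, named without an arm, showed the same order, with 264, 371 and 93.1 units against 66.3, 99.3 and 170 (difference -0.86, limma adjusted p = 0.27). With mouse 10 left out all 3 were called lower, miR-466h-3p at -1.37, miR-669p-3p at -1.51 and miR-467f at -1.50 (limma adjusted p = 0.040, 0.030 and 0.034). The 61 family members together carried 2.66%, 2.20% and 1.06% of the summed detected signal with DNase in mice 7, 9 and 10, and 7.36%, 4.37% and 5.04% without. In fresh liver the corresponding means were 0.113% with DNase and 0.0717% without.

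The other group of increases was rich in pyrimidines. Of the 15 sequenced increases without the motif, 12 had at least 60% C and U, a limit set after the values were seen, and their median pyrimidine share was 79.5% against 45.2% over the tested miRNAs with a sequence. miR-207, of 87% C and U, gave 11.2, 14.4 and 12.9 units with DNase in mice 7, 9 and 10, and 45.0, 45.1 and 46.8 without. The arrays agreed closely within each group, and the difference was 1.86 (SE 0.367, limma adjusted p = 0.0013). miR-877-3p gave 20.6, 22.6 and 21.1 units with DNase and 54.1, 54.6 and 63.2 without, a difference of 1.49 (SE 0.197, limma adjusted p = 7.77e-05). miR-7047-3p went from 16.9, 19.9 and 22.8 to 66.9, 55.7 and 78.2 units, and miR-1943-3p from 5.04, 4.4 and 3.83 to 19.99, 21.1 and 21.2. For all 12, the lowest array without DNase was above the highest with it on the deposited scale. The 12 were chosen by their call on these same arrays, so this describes them and is no separate support. The share over all tested miRNAs was not counted. A dim member, miR-7235-3p, was flagged on 0 of 3 arrays with DNase and on 3 of 3 without, at 9.49, 10.08 and 9.69 units, which was at least 3.59-fold higher (limma adjusted p = 0.00063). Such a bound sets the mean level of the brighter group against the lowest level detected on each array of the other. miR-7235-3p was flagged on 5 of the 24 arrays, so it passed the filter only with the arrays without DNase at 96 h, and its call is a description. The fit of 6 arrays with mouse as a replicate block kept 8 of the 12, and miR-877-3p was among those lost (adjusted p = 0.052).

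**Figure D3:**
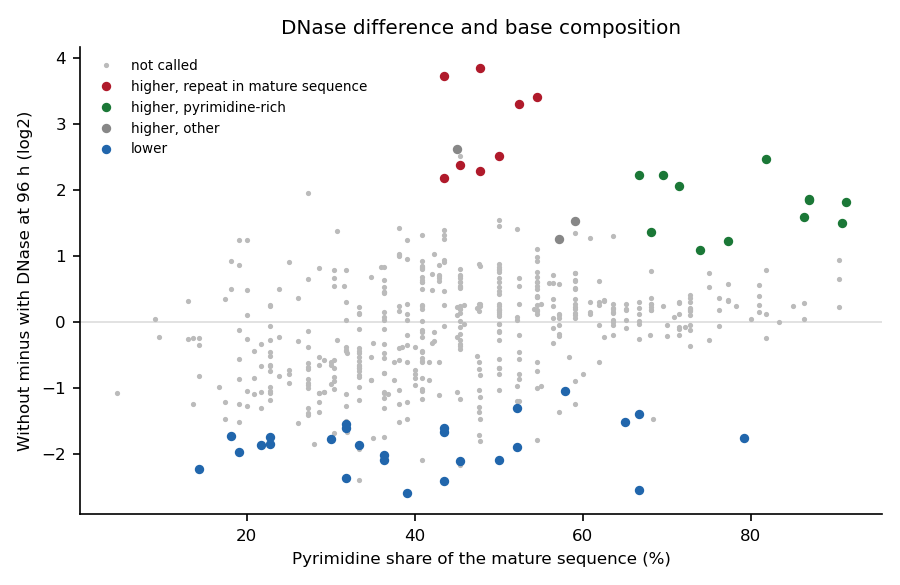
Difference without minus with DNase at 96 h (log2) against the share of C and U in the mature sequence (%), 1 point per tested miRNA with a sequence (526). Increases with the motif lie between 43.5% and 54.5% and the other increases mostly above 60%, while the decreases lie mostly below 50%.

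Setting aside the miRNAs with the motif, 6 of the 21 tested miRNAs with at least 80% pyrimidines were higher and 0 were lower. Increases numbered 3 of 35 between 70% and 80%, 3 of 50 between 60% and 70%, 2 of 107 between 50% and 60%, 1 of 106 between 40% and 50%, and 0 of 196 below 40%. Decreases in the same classes numbered 1, 3, 4, 4 and 14, the last being 7.14% of the class against 4.60% of all tested miRNAs. In the class from 60% to 70%, 6% of miRNAs were lower, and from 80% none of 21 was. The median difference was -0.72 below 30% and 0.39 from 80%, and neither was tested. In mouse 10 both medians were closer to 0, at -0.23 and -0.002. Of the remaining increases, 7 in number, miR-468-3p rose most, from 38.2, 45.5 and 10.8 units with DNase to 293, 154 and 177 without. miR-3968 rose by 1.26 at 96 h and differed by 1.30 at 0 h (limma adjusted p = 0.19 at 0 h), so its difference was of the same size in fresh tissue. miR-144-3p, which marks red blood cells together with miR-451a, was flagged on 0 arrays with DNase and on 1 without, at least 2.03-fold higher, and its call was lost after centring on the 75th percentile, quantile normalization or normexp.

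The decreases formed a different pattern. miR-1224-5p, of 61.9% G and the brightest of them, gave 12746, 25600 and 8862 units with DNase in mice 7, 9 and 10, and 2145, 1470 and 11622 without. In intensity units it fell in mice 7 and 9 and not in mouse 10, and the groups overlapped. The deposited scale, on which it was lower in all 3 mice, gave a difference of -1.96 (SE 0.599, limma adjusted p = 0.038). With mouse 10 left out the difference was -2.92. miR-2137 gave 2777, 5117 and 722 units with DNase and 578, 343 and 824 without (difference -1.85, SE 0.479, limma adjusted p = 0.015). miR-6385 gave 2061, 2182 and 291 units against 227, 110 and 386, and miR-6912-5p gave 115, 144 and 10.3 units against 12.9, 3.71 and 13.95. In intensity units the mouse 10 array with DNase lay within the range of the arrays without it for these miRNAs. On the deposited scale these miRNAs were lower in all 3 mice. On that scale the mouse 10 array was the lowest of the 3 with DNase for all 29 decreases. For 10 of the 29 it fell within the range of the arrays without. The same array was also the lowest with DNase for all 20 motif or family increases, where a low reading widened the difference. Of the 64 probes of the 29 miRNAs, 63 had less signal without DNase in mice 7 and 9, and 13 had less in all 3 mice. These probes likewise make up the signals on which the miRNAs were called.

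Among the decreases were 1 of 7 tested endothelial and stromal miRNAs and 1 of 5 tested immune miRNAs. The other members did not follow as a group, as the median differences of the lists were 0.53 and 0.20. Of the 5 immune miRNAs, 2 were higher without DNase in all 3 mice. miR-145a-5p, a miRNA of smooth muscle and stroma, gave 13.9, 30.3 and 4.4 units with DNase and 0.683, 0.460 and 3.20 without, was flagged on 2 and 0 arrays, and was at least 3.88-fold lower (limma adjusted p = 0.0020). It remained below the threshold in the fit of 6 arrays with mouse as a replicate block (adjusted p = 0.023). miR-155-5p, an immune cell miRNA, gave 51.8, 66.0 and 26.7 units with DNase and 12.9, 3.34 and 34.6 without, a difference of -1.66 (SE 0.474, limma adjusted p = 0.026) that was not called in that fit (adjusted p = 0.091). Its lower signal came from mice 7 and 9. miR-690 fell from 148, 823 and 35 to 24.1, 50.2 and 33.1 units. The median G content of the decreases was 39.1%, against 20% in the increases and 33.3% in all tested miRNAs. With mouse 7 or mouse 9 left out, 0 decreases passed the threshold in limma, where 57 and 62 miRNAs had an unadjusted p under 0.05, and with mouse 10 left out all 29 did.

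The miRNAs that identify liver did not pass the test. miR-122-5p, the main hepatocyte miRNA, gave 3030, 3677 and 6117 units with DNase in mice 7, 9 and 10, and 3120, 5228 and 5788 without, with a difference of 0.29 (SE 0.486, limma adjusted p = 0.72). miR-192-5p, another liver miRNA, gave 430, 420 and 449 units against 442, 570 and 432 (difference 0.28, limma adjusted p = 0.63). Both were detected on all 6 arrays. None of the 12 tested liver miRNAs and none of the 10 tested let-7 members was called, with median differences of 0.48 and 0.65. Within mice these medians were 0.63, 1.17 and -0.47 for liver and 0.91, 1.53 and -0.39 for let-7, so mice 7 and 9 read higher without DNase and mouse 10 lower. let-7a-5p showed this with 53.3, 57.4 and 346 units with DNase and 98.0, 127 and 350 without. With mouse 10 left out, miR-22-3p, let-7a-5p, let-7c-5p and miR-148a-3p passed the threshold, at 1.04, 1.42, 1.47 and 1.14. Liver miRNAs as a list summed to between 5261 and 11228 units with DNase and between 5777 and 11125 without.

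Markers of other cells were read beside these results. Of 3 tested red blood cell miRNAs, miR-144-3p was higher, and miR-451a gave 150, 190 and 205 units against 197, 197 and 198 (limma adjusted p = 0.65). The sums of the red blood cell list were 182 to 236 units with DNase and 226 to 243 without, with miR-144-5p not detected on any array. Of 5 tested immune miRNAs 1 was lower, with sums of 61.2 to 84.4 and 21.1 to 75.3 units, and with miR-150-5p and miR-142a-5p not detected on any array. Of 7 tested endothelial and stromal miRNAs 1 was lower, with sums of 74.9 to 164 and 88.1 to 165 units. None of the 5 bile duct miRNAs was detected on any of the 6 arrays, and of 7 muscle miRNAs 2 were tested and 0 called, with sums of 19.0 to 35.5 and 30.2 to 44.3 units and miR-1a-3p not detected. With mouse 10 left out, miR-200b-3p of the bile duct list was called higher at 1.26 (limma adjusted p = 0.039), though never flagged on these arrays. The part of these cells in the called differences was not tested.

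Among the miRNAs numbered miR-6896 to miR-7093, a block of late entries to the miRNA catalogue, both arms were counted, and the difference between the arms was not tested. Of 200 5p arms on the array 96 were tested, 0 were higher, 5 were lower (5.21%, against 4.60% of all tested miRNAs) and the median was -0.65, with 55 of them (57.3%, against 34.1%) lower in all 3 mice. Of 198 3p arms 46 were tested, 5 were higher and 2 lower (4.35%), 7 (15.2%) were lower in all 3 mice, and the median was 0.17. After normexp the median of the 5p arms was 0.18, but that correction moved the median of all tested miRNAs from 0.03 to 0.45. By number, miRNAs below 300, the early entries with let-7, had 3 increases and 3 decreases among 141 tested, and those from 300 to below 1000 had 20 and 6 among 124. The counts were 4 and 2 among 40 from 1000 to below 3000, and 12 and 18 among 326 from 3000 upward. Of these 4 classes the early entries held the smallest share of calls. One of the clusters into which the study divided these arrays, which it chose on these samples and which is therefore not independent evidence of direction, had 89 members on the array, of which 60 were tested, 27 were higher and 0 lower, with a median of 0.93.

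The same comparison was made in fresh tissue. At 0 h, 0 of 631 tested miRNAs (0%) were called without DNase in the same limma fit, where 29 had an unadjusted p under 0.05. The alternatives gave between 0 and 13 calls there. The median 0 h difference was 0.33 over the 11 tested miRNAs with the motif, and 0.39 over the 11 tested 5p arms of the miR-466, miR-467 and miR-669 families. The test of the difference between 96 h and 0 h called 6 miRNAs with a larger DNase difference after storage (0.951%) and 1 with a smaller one (0.158%). These were miR-467c-5p (2.99, limma adjusted p = 0.016), miR-32-3p (2.84, adjusted p = 0.029), miR-1943-3p (2.12, adjusted p = 0.0030), miR-7047-3p (2.07, adjusted p = 0.011), miR-877-3p (1.61, adjusted p = 0.0039) and miR-1947-3p (1.47, adjusted p = 0.046), and in the other direction miR-6402 (-2.35, adjusted p = 0.029). Of the 6 with a larger difference, miR-32-3p holds the motif, miR-467c-5p is a family member without a matched sequence, and the other 4 are pyrimidine-rich. For miR-32-3p and miR-467c-5p the arrays without DNase at 96 h counted toward passing the filter, so their calls are a description. For miR-466j the difference of differences was 3.25 and did not pass the threshold (adjusted p = 0.068), although it was the larger value, so a call at 96 h and none at 0 h does not by itself show that they differ. These 7 calls were lost when mouse 7 or mouse 9 was left out, with 0 in either direction, and numbered 12 and 25 without mouse 10.

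**Figure D4:**
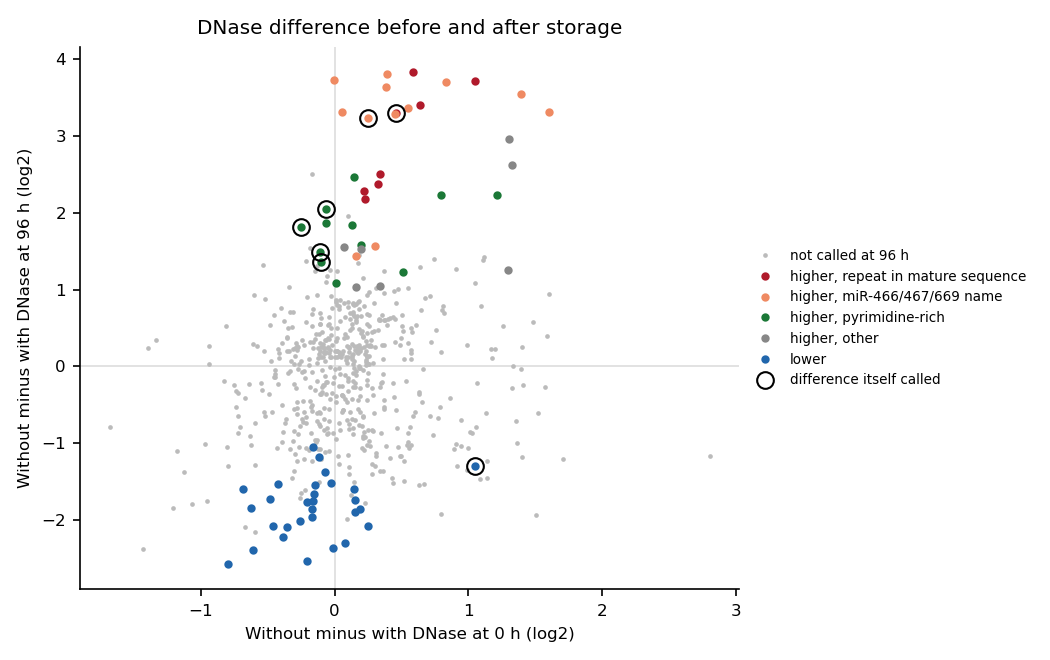
Difference without minus with DNase (log2) at 96 h against that at 0 h for the 631 tested miRNAs, 1 point per miRNA and coloured by call at 96 h, with a black ring around the 7 for which the difference between the storage times was itself called. The increases lie above 1 at 96 h and mostly near 0 at 0 h.

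Set beside the other groups of the series, both kinds of increase were highest in stored tissue without DNase. The median level of the 8 called miRNAs with the motif was 7.34, 6.46 and 6.19 without DNase at 96 h in mice 7, 9 and 10, and 4.22, 4.11 and 2.95 with DNase. In fresh tissue it lay between 0.78 and 1.57 in both groups, in untreated depleted RNA from fresh tissue it was 3.36, 2.37 and 3.65, and with RNase incubation (0 U, 0.026 U or 0.67 U) it lay between 0.96 and 2.0. Stored tissue with DNase digestion thus read above the fresh arrays that included small RNAs. Against untreated depleted RNA from fresh tissue it read higher in mice 7 and 9 and lower in mouse 10. The 12 pyrimidine-rich increases had medians of 3.38, 3.18 and 3.46 without DNase at 96 h, of 1.21, 1.84 and 1.92 with it, and between 0.76 and 2.29 in the other groups. The 29 decreases followed another order: 5.32, 6.03 and 4.10 with DNase and 3.36, 2.89 and 3.63 without at 96 h, 2.08 to 2.46 in fresh tissue, and 3.57 to 5.0 in depleted RNA treated with 0.026 U or 0.67 U of RNase. For mouse 9 the labels of these RNase doses contradict each other, so the doses are given here as a range. No test was run on these medians, since the miRNAs were chosen by their values at 96 h.

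**Figure D5:**
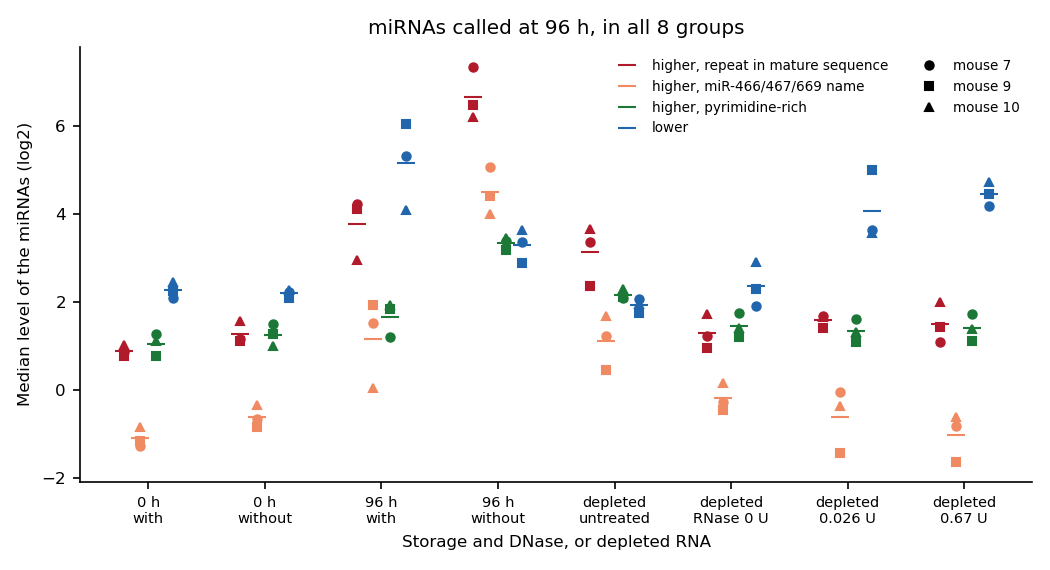
Median level (log2) of the miRNAs in 4 sets of calls at 96 h in each of the 8 groups of the series, with 1 symbol per mouse and a dash for the mean over the 3 mice. The motif and family sets peak in stored tissue without DNase, and the decreases peak in stored tissue with DNase and in RNA treated with 0.026 U or 0.67 U of RNase.

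Detection flags gave a view that did not depend on the filter. Over all 1881 miRNAs, 22 were flagged on 3 of 3 arrays without DNase and on 0 of 3 with it (1.17%), and 3 showed the reverse (0.159%). Of the 22, 3 had passed the filter and 1, miR-7235-3p, was called, and their signals without DNase ran from 1.62 to 24.1 units. miR-294-3p gave 4.62, 3.55 and 1.98 units with DNase and 24.1, 16.4 and 10.9 without, and let-7j gave 2.27, 3.92 and 0.162 units against 17.6, 17.9 and 10.7. miR-297c-5p, of the family in which no member was tested, gave 1.08, 1.26 and -0.906 units with DNase and 22.8, 7.44 and 11.6 without. The groups did not overlap in any of these 3, which were picked from miRNAs selected by their flags on these arrays, so this is a description. In others of the 22 the groups did overlap. miR-6952-3p gave 2.95, 3.42 and 3.09 units with DNase and 3.26, 3.51 and 7.50 without. Of the 22, 15 were 3p arms, and the median pyrimidine share of the 20 with a sequence was 68.2%. The corresponding figures over all miRNAs on the array were not counted, so no difference from the array is shown. The 3 miRNAs flagged only with DNase were miR-327, miR-6407 and miR-7083-5p, at up to 16.8 units. These miRNAs were named after their values were seen.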

How the data were processed

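Of 24 one-colour Agilent arrays that each read 1881 mouse miRNAs, 6 were compared. Spot signals came from Agilent Feature Extraction, version 10.10.1.1 per the file headers. The deposited scanner files hold background-subtracted fluorescence intensity and a detection flag, and signals are printed in these intensity units. The deposited table of all arrays holds log2 values after the authors' variance stabilization, and on the 6 arrays each value was checked to follow from the intensity by an inverse hyperbolic sine transform (largest residual 7.6e-06). At low signals a log2 difference on that scale understates the ratio. The number of arrays limits the precision.

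The filter of the study's methods, applied to the flags in the scanner files, kept 631 miRNAs with a detection flag on 5 or more of all arrays, a number that differs from the one the methods give for these arrays. They were tested with limma 3.58.1 (R 4.3.3) in 1 fit of 8 group means with a trended variance. Calls needed an adjusted p under 0.05 and a difference of at least 1. The rank test named in the methods cannot pass 0.05 with 3 arrays a group. On simulated data with 200 of 631 miRNAs changed by 2 (log2), 85% were recovered, with 8 false calls. The simulated noise was independent between arrays, with 1 spread per miRNA, no mouse effect and no array of lower quality. These figures therefore need not hold for the arrays compared here. Members, lists and tests were chosen with earlier results of these data known. The labels tie both arrays of a number to 1 animal, and their deviations from the group means correlated at 0.58, 0.05 and 0.31 in mice 7, 9 and 10. The limma p-values of the main fit rest on the spread between these mice within groups, pooled over all 8 groups. They do not use the pairing of arrays by mouse, which the fits with a replicate block do.

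Named miRNAs were the 10 largest increases and decreases with the same sign in every mouse and a detection flag throughout at least 1 group, the 3 brightest tested members of each family or cell-type list, 9 miRNAs fixed by name, and the 5 largest calls of the storage difference in each direction under the same conditions. Others are named for their sequence, for a small count, or after their values were seen. Sequence letters were matched to RefSeq (GRCm38.p6) by miRNA name. Counts in the composition classes and medians are descriptions without a test. Python 3.11.15, pandas 2.3.3, numpy 2.4.6 and scipy 1.17.1 were used. Alternatives changed the arrays fitted, replicate block, weights, scaling, background, filter, and the mice included.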

Additional observations from a re-analysis of the deposited data

Results flagged for a closer look

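The DNase difference itself differed between storage times, by the interaction test in limma, for 7 miRNAs. The difference at 96 h minus that at 0 h was 2.99 for miR-467c-5p, 2.84 for miR-32-3p, 2.12 for miR-1943-3p, 2.07 for miR-7047-3p, 1.61 for miR-877-3p and 1.47 for miR-1947-3p on the log2 scale, and -2.35 for miR-6402. In each of the 6 with a larger difference, all 3 mice had the larger value at 96 h. The 6 were chosen by the test on these same arrays, so this is a description. The share over all tested miRNAs was not counted for this measure. miR-6402 gave 34.7, 94.5 and 13.0 units with DNase and 12.5, 11.7 and 12.7 without at 96 h in mice 7, 9 and 10, so mouse 10 changed least.

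The corner control spots, which carry no mouse miRNA and enter no comparison, also read higher without DNase. Their array medians were 34.4, 45.3 and 40.4 units with DNase in mice 7, 9 and 10, and 60.3, 50.4 and 129.7 without, with a mean of 80.1 units without DNase against 40.03 with it (two-sided exact permutation p = 0.1, the smallest this design allows). At 0 h the means were 25.8 and 28.3 units. Negative control spots had mean medians of 1.42 units without DNase and 1.62 with it at 96 h.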

How the results depend on the processing

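With a replicate block for mouse in the fit of all 24 arrays, 37 miRNAs were higher and 29 lower at 96 h, and in the paired fit of the 6 compared arrays 28 and 3. The 6 arrays without a block gave 31 and 1, and the 12 arrays with small RNAs 37 and 41. Array weights gave 89 and 114, no filter 99 and 39, no normalization 46 and 54, normexp 37 and 15, and the rank test 0 and 0, with 0 unadjusted p under 0.05. Leaving out 1 mouse gave 14 to 88 increases and 0 to 78 decreases. At 0 h, array weights gave 13 calls, quantile normalization 7, no normalization 2 and no filter 1. Larger and smaller storage differences numbered 14 and 5 on 12 arrays, 48 and 85 with array weights, 29 and 7 after the 75th percentile, 23 and 12 after quantile normalization, 23 and 14 without normalization, 62 and 5 after normexp, 18 and 2 without the filter, 17 and 2 when detection on all 3 arrays of a group was required, and 0 to 12 and 0 to 25 with 1 mouse left out. The cause of these moves was not tested. The detected count difference ran from -63.5 to 25.0 and the total signal difference from -0.640 to 0.0285 with 1 mouse left out, changing sign without mouse 9. All 8 motif increases were called under every other limma setting except without mouse 7, where 4 were. Called decreases, where tested, kept their direction under all limma settings except normexp, where 26 of 29 did. The medians of all tested miRNAs were 0.18 after the 75th percentile, -0.11 without normalization and 0.45 after normexp. Of the 605 miRNAs tested under the stricter filter, 54 were higher and 29 lower.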
